A study of Mus musculus with 6 samples.

Results

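ATP-sensitive potassium channels join a pore with a regulatory subunit, and the genes described here are the 4 that encode them. Kcnj8 and Kcnj11 encode the inward rectifier subunits Kir6.1 and Kir6.2, which form the pore. Abcc8 and Abcc9 encode the sulfonylurea receptors SUR1 and SUR2, which belong to the ABCC branch of the ATP-binding cassette proteins. They are 4 of the 18193 genes measured, and the members were all of their probe sets on the array, 8 of the 45037 that are not controls: 1 of Kcnj8, 2 of Kcnj11, 2 of Abcc8 and 3 of Abcc9. Kcnj8 was selected on its measured levels, which are high in the most mature subset, and the other genes were taken because their products are its possible partners in a channel.

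Natural killer (NK) cells are innate lymphocytes that kill infected and transformed cells. Mice of the RAG-/- genotype, which make no mature T or B cells, gave spleen cells that were sorted for NK1.1 and then by 2 further surface proteins. The least mature of the 3 subsets was CD27+CD11b-, the next CD27+CD11b+, and the most mature CD27-CD11b+, by the order commonly given to these stages. RNA of each subset was measured on 2 Affymetrix mouse expression arrays, 6 in all. The labels give no treatment, and neither the age of the mice nor which Rag gene is deleted is given in the sources used here. The series design calls the 2 arrays of a subset independent replicates, but nothing says that they came from separate animals. A p-value here thus rests on the spread between samples that may be technical repeats, and precision is limited by having 2 arrays in a subset.

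An ATP-sensitive channel needs both kinds of subunit: 4 pore subunits surrounded by 4 sulfonylurea receptors. ATP closes the channel and magnesium-bound ADP opens it through the receptor, so the channel ties the membrane potential to the energy state of the cell. In the pancreatic beta cell, Kir6.2 with SUR1 couples glucose to insulin release, and in vascular smooth muscle and pericytes Kir6.1 with SUR2 sets vessel tone. A pore subunit made without a receptor is kept in the endoplasmic reticulum, which is why the receptor genes are described beside Kcnj8.

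All values are log2 levels made by RMA, a method that removes background, brings the arrays to a common distribution and merges each probe set into 1 value. RMA compresses the differences of dim probe sets toward 0. A probe set was taken as above background where its subset mean exceeded 6.40, the 95th percentile of the means of 54 genes of other tissues. Where no subset is named, counts of genes above background are of those above it in at least 1 subset. Levels of different probe sets are not compared. The early step is CD27+CD11b+ against CD27+CD11b-, the late step is CD27-CD11b+ against CD27+CD11b+, and the outer comparison is CD27-CD11b+ against CD27+CD11b-. These comparisons share subsets, so their values for a gene are not independent of each other.

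The arrays matched their sort in its markers, with an exception in the labels. All 14 NK cell markers of the list were above background in at least 1 subset. Among them was the activating receptor Ncr1, at log2 levels of 9.84 to 10.95. Cd27 was lower on both CD27-CD11b+ arrays, at 6.96 and 6.47, than on the other 4 arrays, at 8.03 to 8.92. Itgam, which encodes CD11b, was at 6.37 and 5.88 in CD27+CD11b- cells, 8.69 and 8.01 in CD27+CD11b+ cells, and 9.93 and 9.44 in CD27-CD11b+ cells. The sort text of CD27-CD11b+ replicate 1 names the gate of the least mature subset, while its title, and these 2 markers, place it with the most mature subset. The arrays also fall into another division: 3 probe sets without a gene name lay at 12.57 to 12.81 on 1 array of each subset (the "on" arrays: replicate 2 of both CD27+ subsets and replicate 1 of CD27-CD11b+) and at 4.33 to 4.47 on the others (the "off" arrays).

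Kcnj8 was close to background in both CD27+ subsets and high in CD27-CD11b+ cells. Its probe set, 1418142_at, had log2 levels of 6.20 and 6.13 in CD27+CD11b- cells, 6.72 and 6.48 in CD27+CD11b+ cells, and 10.66 and 10.43 in CD27-CD11b+ cells. Both CD27-CD11b+ arrays were far above the other 4, and no subset overlapped another. The subset means were 6.16 ± 0.051, 6.60 ± 0.17 and 10.54 ± 0.16 (SD, n = 2 each). The first mean was below the background level and the second was 0.21 above it, so these early levels are little more than the lowest signal this array can tell from none. The mean in CD27-CD11b+ cells was 4.15 above that level.

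The larger difference was that of the late step. It was 3.94 on the log2 scale, or 15.4-fold, against 0.44 in the early step, which starts from a level below background and is at least 1.15-fold when that level is set to the background level. In the outer comparison the difference was 4.38, which is at least 17.7-fold when the CD27+CD11b- level is set to the background level. The lowest CD27-CD11b+ array and the highest array of the CD27+ subsets were 3.71 apart, while the 2 arrays of a subset were never more than 0.24 apart. Since the gene was chosen for this pattern, these values are a description and carry no test. As bulk samples were measured, fewer cells with the transcript and less transcript per cell cannot be told apart.

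Among the differences of all 45037 probe sets, that of Kcnj8 was the second largest of the late step, the third largest of the outer comparison and number 1012 of the early step. Within the off arrays the late difference was 3.71 and within the on arrays 4.18, so each side of the array division showed it. In the outer comparison the values were 4.23 and 4.53. Without CD27-CD11b+ replicate 1, whose sort text and title disagree, the late difference was 3.83 and the outer one 4.27. The gene has 1 probe set on the array, so no second probe set bears on these values.

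**Figure D1:**
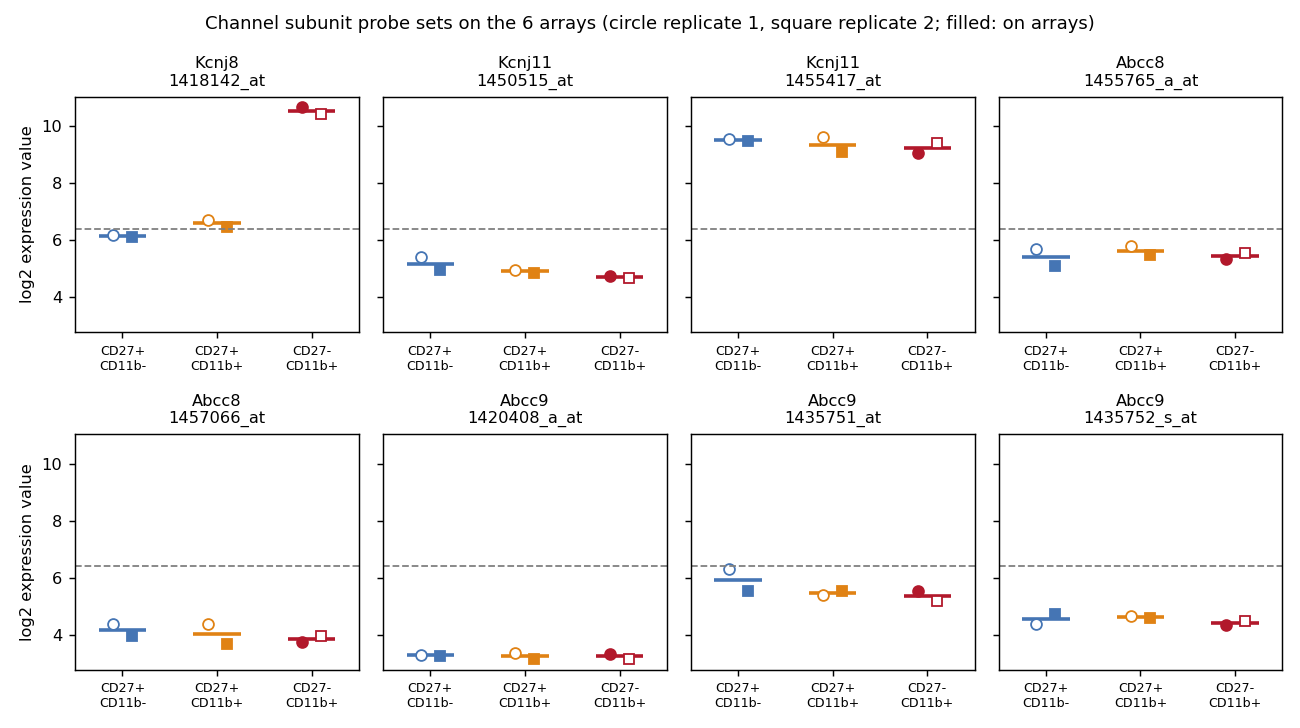
Log2 level of each of the 8 probe sets of Kcnj8, Kcnj11, Abcc8 and Abcc9 on each of the 6 arrays, by subset; circles are replicate 1, squares replicate 2, filled symbols the on arrays, and the dashed line the background level of 6.40. Kcnj8 lies at 10.43 and 10.66 in CD27-CD11b+ cells and at 6.13 to 6.72 elsewhere, Kcnj11 probe set 1455417_at lies above background throughout, and the other 6 lie below it in each subset's mean.

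The sequence just before the start of Kcnj8 is given because this is the gene of the 4 that rises, and the factors T-bet and Eomes of the T-box family act in NK cell maturation. It comes from RefSeq (build GRCm38.p6, chr6:142571615-142571864, minus strand, the 250 bases before the annotated start, read in the direction of the gene). Capitals mark the one T-box half-site.
Kcnj8: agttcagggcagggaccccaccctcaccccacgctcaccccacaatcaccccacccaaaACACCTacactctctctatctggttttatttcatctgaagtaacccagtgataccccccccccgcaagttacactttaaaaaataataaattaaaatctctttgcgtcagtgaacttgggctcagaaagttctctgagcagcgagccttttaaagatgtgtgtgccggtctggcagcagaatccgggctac
The half-site, AGGTGT, is present here on the opposite strand as ACACCT, 191 bases before the start. The same letters occur on either strand in 11.8% of the 32851 windows of equal length in the table. Searches on both strands for CAGGTG, a sequence bound by ZEB factors that shares AGGTG with the half-site, for GTGAAA, a core bound by PRDM1, and for TATAAA, the TATA box, found 0 matches in the Kcnj8 window. These sequences occur in 17.2%, 11.1% and 12.4% of all windows. Of the 4 genes, 2 had a window in the table, and the window of Abcc9 held 0 matches to any of the 4 motifs. A match shows only that the letters are there, and the arrays hold no measure of binding.

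Kcnj11, the other pore subunit, was detected by 1 of its 2 probe sets, and neither followed Kcnj8. Probe set 1455417_at had log2 levels of 9.56 and 9.48 in CD27+CD11b- cells, 9.62 and 9.09 in CD27+CD11b+ cells, and 9.05 and 9.40 in CD27-CD11b+ cells. The CD27+CD11b+ arrays span the values of nearly all the others, so the subsets overlapped, and every subset was above background. The means were 9.52 ± 0.060, 9.35 ± 0.37 and 9.23 ± 0.25 (SD, n = 2 each). The late difference was -0.13 (limma 95% interval -0.66 to 0.40, adjusted p = 0.904) and the outer difference was -0.29 (-0.82 to 0.24, adjusted p = 0.598).

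The second Kcnj11 probe set, 1450515_at, was below background in every subset, so the 2 probe sets disagree on whether the transcript is present. It had log2 levels of 5.41 and 4.95 in CD27+CD11b- cells, 4.98 and 4.86 in CD27+CD11b+ cells, and 4.76 and 4.67 in CD27-CD11b+ cells. The CD27-CD11b+ arrays were the lowest, with no overlap with the other subsets. The outer difference was -0.46 (limma SE 0.18, interval -0.91 to -0.02, adjusted p = 0.316). This interval, which is not adjusted for the number of probe sets, leaves out 0, and the adjusted p does not pass the threshold of 0.05.

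Abcc9 encodes SUR2, the usual partner of Kir6.1, and lies next to Kcnj8 in the genome. All 3 of its probe sets were below background in every subset. Probe set 1435751_at had log2 levels of 6.29 and 5.53 in CD27+CD11b- cells, 5.39 and 5.54 in CD27+CD11b+ cells, and 5.53 and 5.19 in CD27-CD11b+ cells. The highest value was on a CD27+CD11b- array, the subset where Kcnj8 was lowest, and the subsets overlapped. The means were 5.91 ± 0.54, 5.46 ± 0.11 and 5.36 ± 0.24 (SD, n = 2 each). The late difference was -0.10 (limma 95% interval -0.75 to 0.55) and the outer difference was -0.55 (adjusted p = 0.412).

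The other Abcc9 probe sets were not higher in CD27-CD11b+ cells either. Probe set 1420408_a_at had log2 levels of 3.30 and 3.26, 3.37 and 3.16, and 3.34 and 3.15 in the order of the subsets. Each subset thus held nearly the same pair of values, and the late difference was -0.01. Probe set 1435752_s_at had 4.37 and 4.74, then 4.65 and 4.59, then 4.35 and 4.49. Its subsets overlapped and its late difference was -0.20.

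Abcc8 encodes SUR1, the receptor of the beta cell channel, and both of its probe sets were below background in every subset. Probe set 1455765_a_at had log2 levels of 5.70 and 5.11 in CD27+CD11b- cells, 5.79 and 5.49 in CD27+CD11b+ cells, and 5.35 and 5.56 in CD27-CD11b+ cells. Probe set 1457066_at had 4.37 and 3.96, then 4.39 and 3.67, then 3.76 and 3.95 in the same order. On both, the subsets overlapped, and on both the late difference was -0.18.

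Of the 7 probe sets of the 3 partner genes, 0 were called at a limma adjusted p under 0.05 in the early step, where 0% of all 45037 probe sets were called. In the late step 0 of 7 were called, against 0.04% of all probe sets, and in the outer comparison 0 of 7, against 0.639%. At an unadjusted p under 0.05 the counts were 0, 0 and 1, the last being Kcnj11 probe set 1450515_at. With so few calls among all probe sets, a count of 0 of 7 is no departure from the background, and the intervals say more than the calls. In the late step all 7 differences were below 0, with a median of -0.18 against 0.0035 over all probe sets, but in 4 of the 7 the sign turned when 1 array was left out (Kcnj11 1455417_at, Abcc8 1457066_at, Abcc9 1420408_a_at and Abcc9 1435751_at). The highest upper bound of any of their 95% intervals was 0.55, a rise of 1.46-fold, and it was 0.80 (1.74-fold) in the early step and 0.62 (1.53-fold) in the outer comparison. Because 6 of the 7 lay below background, where RMA compresses differences, these bounds hold for the measured levels.

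**Figure D2:**
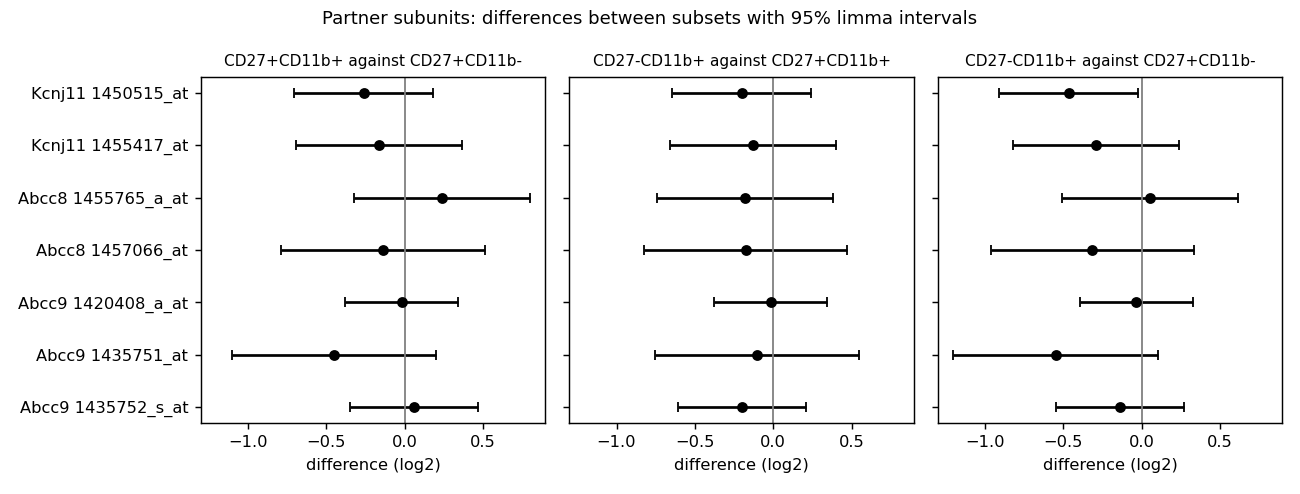
Differences on the log2 scale of the 7 probe sets of Kcnj11, Abcc8 and Abcc9 in the 3 comparisons; points are the differences of subset means (n = 2 arrays each) and bars their limma 95% intervals, not adjusted for the number of probe sets. In the late step all 7 points lie below 0, of which 4 change sign when 1 array is left out, and no interval reaches above 0.55.

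None of the genes beside Kcnj8 was called in the late step, and their late differences ranged from -0.22 to 0.86 on the log2 scale. In the RefSeq gene order of the mouse, Kcnj8 and Abcc9 are adjacent, with 0 genes between them. Of the 5 nearest genes with a probe set on each side, 6 of 10 were above background. With 1 probe set per gene and the limma fit over 18193 genes, 0 of the 10 were called in the early step, where 0.121% of all genes were called, and 0 in the late step, against 0.297%. In the outer comparison 1 of the 10 was called, against 3.39% of all genes, and at an unadjusted p under 0.05 the counts were 1, 2 and 3, against 3.79%, 11.1% and 18.9% of all genes. The nearest gene on the Kcnj8 side was Ldhb, which encodes a lactate dehydrogenase subunit, with log2 levels of 6.92 and 7.04, 6.68 and 6.49, and 6.81 and 6.55. Its late difference was 0.10, which shows CD27-CD11b+ cells within the range of the other subsets. Beyond Abcc9, Cmas, which activates sialic acid, had a late difference of 0.37 (adjusted p = 0.437).

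The called neighbour was Spx, which encodes the secreted peptide spexin. It had log2 levels of 4.33 and 4.11, 4.33 and 4.51, and 4.997 and 5.56 in the order of the subsets. The CD27-CD11b+ arrays were the highest, without overlap, but every subset mean was below background. The outer difference was 1.05 (limma SE 0.21, adjusted p = 0.0388). The call was lost in the fit over all probe sets (adjusted p = 0.106), with 32 added to the linear value (0.120) and without any 1 of 4 arrays, the CD27+CD11b- and CD27-CD11b+ ones (0.0674 to 0.141).

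Kcnj11 and Abcc8 are also near each other, with 1 gene between them for which no probe set was used. Of the 10 nearest genes around this pair, 4 were above background, and 0, 0 and 1 were called in the 3 comparisons (1, 1 and 1 at an unadjusted p under 0.05), against the same shares of all genes as above. The called gene was Emp3, which encodes a small membrane protein of the PMP22 family. It had log2 levels of 10.43 and 9.89, 11.18 and 10.73, and 11.86 and 11.50, so it was higher in each later subset, without overlap. The outer difference was 1.52 (limma SE 0.24, adjusted p = 0.0184). It was no longer called in the fit over all probe sets (adjusted p = 0.0739) or with 32 added to the linear value (0.0674), nor when CD27+CD11b- replicate 2 (0.0639) or either of the CD27-CD11b+ arrays (0.163 and 0.0616) was left out.

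**Figure D3:**
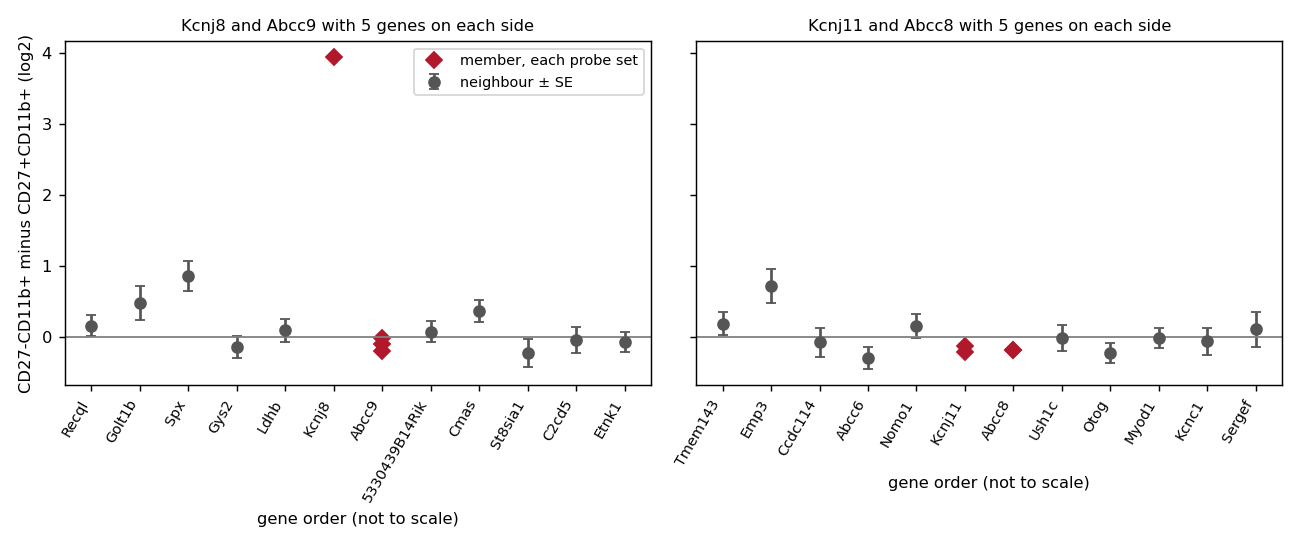
Differences on the log2 scale in the late step for Kcnj8 and Abcc9 (left) and Kcnj11 and Abcc8 (right), in gene order. Each pair is shown with the 5 nearest genes with a probe set on each side. Bars on the neighbours are limma SE, and each probe set of a member is a point. Kcnj8 stands at 3.94 in the late step, and the highest of its neighbours, Spx, is at 0.86.

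Other potassium channel genes were for the most part not detected in these cells. Of 82 genes whose symbols start with Kcn, without Kcnj8 and Kcnj11, 74 were below background in every subset. Of all 82, 0 were called in the early step, 0 in the late step and 1 in the outer comparison by limma, where 0.121%, 0.297% and 3.39% of all genes were called. An unadjusted p under 0.05 was found for 3, 2 and 8 of the 82, and for 3.79%, 11.1% and 18.9% of all genes. The early count was near the share of all genes, and the others were below it. Of all 18193 genes, 8731 were above background in a subset. Most of the 82 were not, and RMA compresses the differences of dim probe sets, so these shares are not like for like. The median differences were -0.04, -0.08 and -0.08, against -0.0074, 0.019 and -0.0055 over all genes. Those named by the rule, the 10 whose probe sets had the highest means, which is no ranking of expression, were Kcnq5, Kcnab2, Kcnn4, Kcnip3, Kcnk5, Kcnh3, the noncoding RNA Kcnq1ot1, Kcnc1, Kcna7 and Kcnc4, of which the last 2 were below background. Kcna3, the voltage-gated channel gene best known from T cells and named here after its values were seen, was at 4.97 to 5.35, below background on all 6 arrays.

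Kcnn4 encodes the calcium-activated channel KCa3.1 of lymphocytes and was lower in the most mature subset than in the least mature one. Its probe set 1435945_a_at had log2 levels of 9.13 and 9.47 in CD27+CD11b- cells, 8.83 and 9.06 in CD27+CD11b+ cells, and 8.08 and 8.11 in CD27-CD11b+ cells. The CD27-CD11b+ arrays were the lowest, without overlap. The outer difference was -1.20 (limma SE 0.17, adjusted p = 0.0124), or 2.30-fold lower in CD27-CD11b+ cells, and the late difference was -0.85 (adjusted p = 0.127, and 0.0422 with the array division as a block). Its other probe set, 1421038_a_at, was also lower in the outer comparison (difference -0.68). The call was lost in the fit over all probe sets (adjusted p = 0.0502), when CD27+CD11b- replicate 2 was left out (0.0589) and when either of the CD27-CD11b+ arrays was (0.120 for replicate 1 and 0.0675 for replicate 2).

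Kcnab2, a beta subunit of voltage-gated channels, had log2 levels of 8.67 and 8.40, 8.92 and 8.74, and 9.27 and 9.07 in the order of the subsets. On this probe set, 1416956_at, the CD27-CD11b+ arrays were the highest, and the outer difference of 0.64 did not pass the test (limma adjusted p = 0.0895). On its other probe set, 1425885_a_at, they were at 7.97 and 7.46 and overlapped the other subsets (outer difference 0.40). Kcnk5, a leak channel of the 2-pore-domain group, had 7.20 and 7.13, 7.74 and 7.70, and 8.10 and 7.58. On this probe set, 1421852_at, the CD27+ subsets did not overlap. The CD27-CD11b+ arrays lay on both sides of the CD27+CD11b+ ones (outer difference 0.67, limma adjusted p = 0.108). The other Kcnk5 probe set, 1450398_at, was below background in every subset, with an early difference of -0.06 and an outer one of 0.21. Kcnq5, a voltage-gated channel gene, had 8.63 and 8.68, 9.21 and 9.45, and 8.20 and 9.81 on probe set 1441071_at. There its lowest and its highest values were both in CD27-CD11b+ cells. Another Kcnq5 probe set above background, 1457587_at, had 6.37 and 6.85, 6.62 and 7.11, and 7.42 and 7.07. Its lowest value was in CD27+CD11b- cells (outer difference 0.64).

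No inward rectifier gene apart from Kcnj8 and Kcnj11 was detected. The other 13 of this family that were measured were all below background in every subset, and 0 were called in any comparison by limma (0, 0 and 1 at an unadjusted p under 0.05). Among all genes 0.121%, 0.297% and 3.39% were called, and 3.79%, 11.1% and 18.9% had an unadjusted p under 0.05. Their median late difference was -0.12, and their highest late difference was 0.07. Of the 9 ABCC transporter genes measured besides Abcc8 and Abcc9, 3 were above background: Abcc1, a glutathione conjugate exporter, Abcc4, an exporter of cyclic nucleotides and prostaglandins, and Abcc5, another cyclic nucleotide exporter. In this family 0 were called in any comparison, and also 0 at an unadjusted p under 0.05, against the same shares of all genes. Abcc1 had log2 levels of 8.51 and 9.56, 8.06 and 9.27, and 8.52 and 8.15, and in both CD27+ subsets the on array was the higher by over 1 unit. The highest late difference in this family was 0.24, on Abcc5.

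**Figure D4:**
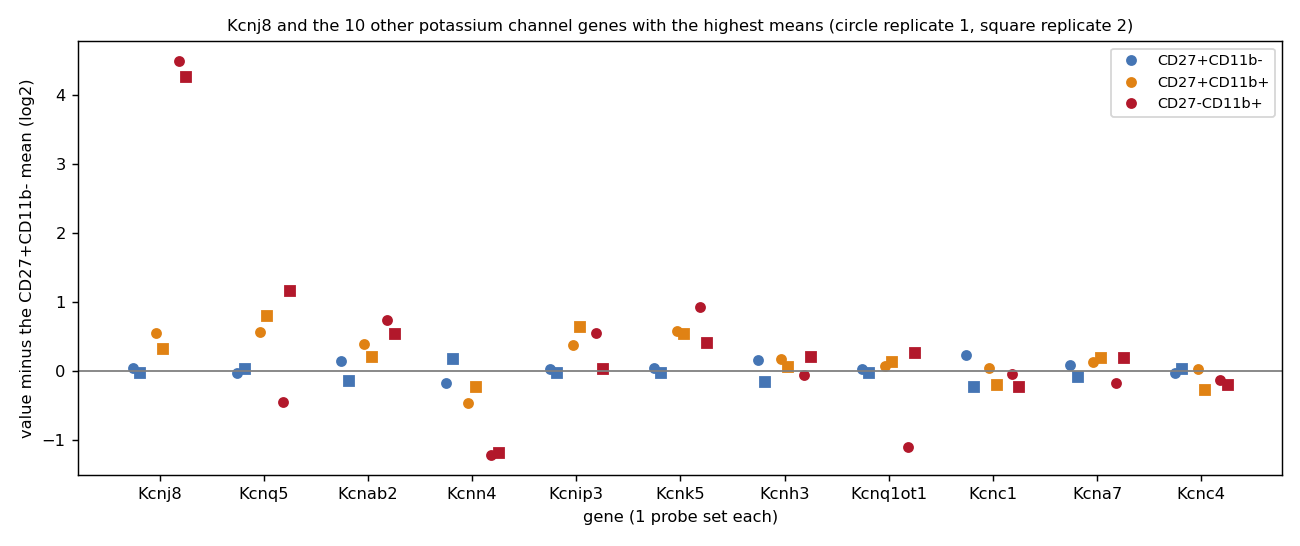
Log2 level on each of the 6 arrays minus the mean of the CD27+CD11b- arrays (vertical), for Kcnj8 and other potassium channel genes (horizontal). Colours mark the subsets. The other genes are those named in the text because their probe sets had the highest means. The outer difference is 4.38 for Kcnj8 and -1.20 for Kcnn4.

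Kcnj8 and Abcc9 are also known as marker genes of pericytes and other mural cells, the contractile cells around small vessels. Of 13 mural cell markers, 11 were below background in every subset, among them Rgs5 at 3.93 to 4.09, Pdgfrb at 4.70 to 5.49, Cspg4, Myh11, Notch3 and Des. The mean of the list was 5.25 and 5.004 in CD27+CD11b- cells, 5.20 and 5.06 in CD27+CD11b+ cells, and 5.21 and 5.12 in CD27-CD11b+ cells. On the linear scale the summed level was 514 to 599, 583 to 614 and 827 to 1077, highest in CD27-CD11b+ cells. That sum holds Mcam, an adhesion molecule and the 1 marker of the list that was called. By limma 0, 0 and 1 of the list were called in the 3 comparisons (0, 1 and 1 at an unadjusted p under 0.05). Among all genes 0.121%, 0.297% and 3.39% were called, and 3.79%, 11.1% and 18.9% had an unadjusted p under 0.05. Mcam had log2 levels of 6.42 and 6.61, 6.74 and 7.58, and 9.35 and 8.73. Its CD27-CD11b+ arrays were the highest, and the outer difference was 2.53 (limma SE 0.30, adjusted p = 0.00578), a 5.78-fold rise that was not called without CD27-CD11b+ replicate 1 (adjusted p = 0.0733). The late difference was 1.88 (adjusted p = 0.0612). Whether mural cells add to the level of Kcnj8 was not tested.

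Endothelial and fibroblast genes were near the lowest signal. Of 12 endothelial markers 11, and of 8 fibroblast markers all 8, were below background in every subset, and 0 of either list were called by limma in any comparison (unadjusted p under 0.05 in 0, 3 and 1 endothelial and in 0, 2 and 1 fibroblast markers, and in 3.79%, 11.1% and 18.9% of all genes). The mean log2 level of these lists stayed between 4.93 and 5.28 and between 4.56 and 4.78. Of 8 megakaryocyte and platelet markers measured, 4 were above background in a subset, and the list mean was 5.38 and 5.67, 5.70 and 5.91, and 6.16 and 5.88. By limma 0, 1 and 1 of these 8 were called in the 3 comparisons (1, 2 and 2 at an unadjusted p under 0.05). Among all genes 0.121%, 0.297% and 3.39% were called. The one called was Gp1bb, a subunit of the platelet von Willebrand factor receptor. Its probe set 1422977_at had log2 levels of 4.60 and 5.36, 6.11 and 6.27, and 8.91 and 8.06. Its levels in both CD27+ subsets were below background, and those in CD27-CD11b+ cells above it, at least 4.25-fold over the background level. The late difference was 2.30 (limma adjusted p = 0.0417) and the outer one 3.51 (0.00193), while its other probe set, 1456427_at, stayed between 5.23 and 5.38. The late call of Gp1bb was lost in the fit over all probe sets (0.198), with 32 added to the linear value (0.144), with the replicate block (0.0833) and without any 1 of the 4 arrays compared (0.0583 to 0.285). Pf4, a defining platelet gene, was below background at 4.52 to 5.08. The part of these markers in the level of Kcnj8 was not tested.

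The monocyte and macrophage markers differed with the array division. The mean log2 level of the 17 measured was 6.12 and 7.69, 6.99 and 8.01, and 7.83 and 6.77, so in each subset the on array was the higher, and CD27+CD11b- had the lowest array on either side of the division. In the early step 15 of the 17 were higher (median difference 0.65) and in the outer comparison 13 (median 0.41), while in the late step 4 were (median -0.18). Of these markers 0 were called by limma in any comparison, and 0 had an unadjusted p under 0.05. That fit had no term for the array division, which therefore counted as spread within each subset. These counts of 0 thus say little about differences between the subsets. Among all genes 0.121%, 0.297% and 3.39% were called, and 3.79%, 11.1% and 18.9% had an unadjusted p under 0.05. The late difference of Kcnj8 was 3.71 within the off arrays and 4.18 within the on arrays, each from a single array per subset. What the cells of these markers add to the level of Kcnj8 was not tested.

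**Figure D5:**
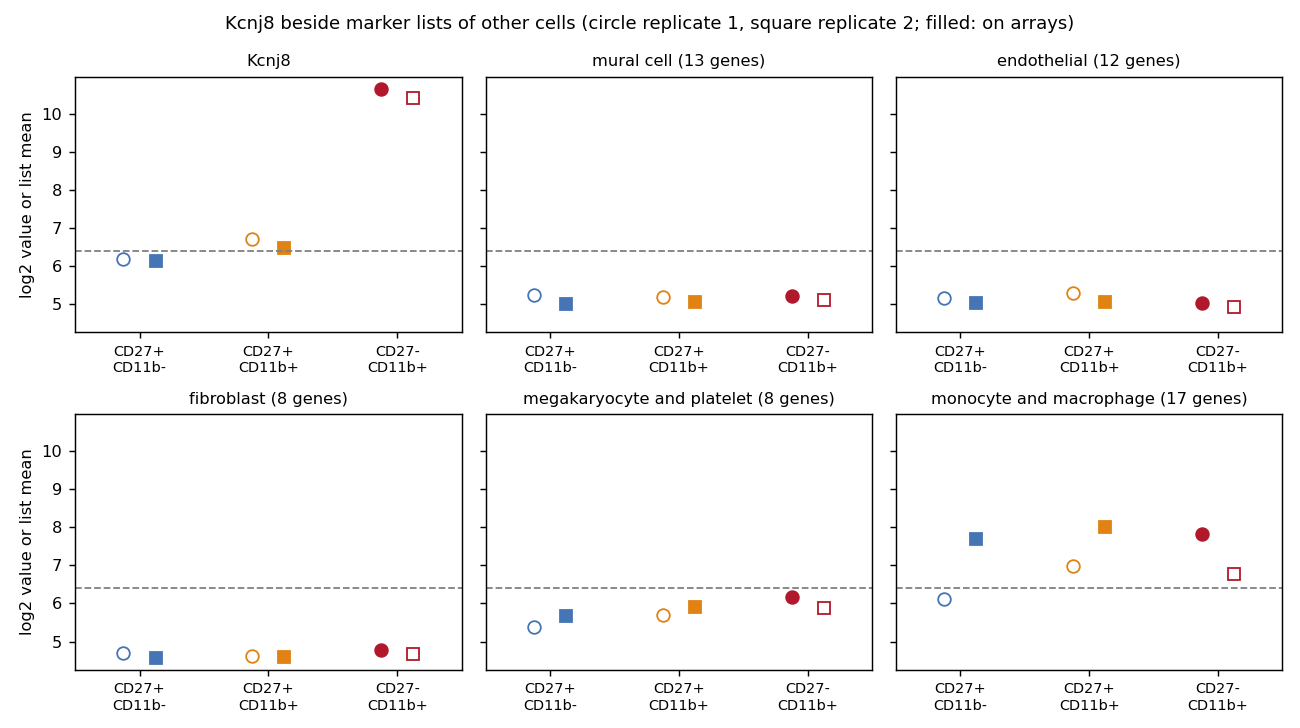
Mean log2 level of 5 marker lists (mural, endothelial, fibroblast, megakaryocyte and platelet, monocyte and macrophage) and the level of Kcnj8 on each of the 6 arrays. Circles are replicate 1, squares replicate 2, filled symbols the on arrays, and the dashed line the background level. The mean of the mural list lies between 5.004 and 5.25 and Kcnj8 between 6.13 and 10.66. The monocyte list is higher on the on array of every subset.

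Among 498 genes above background whose subset means spanned at least 1 log2 unit, those most like Kcnj8 over the 6 arrays had Pearson correlations of 0.982 to 0.995. These correlations are a description: the genes share the same 6 arrays, and any gene that rises late alone will correlate with Kcnj8. The 10 were Gpx8, a glutathione peroxidase of the endoplasmic reticulum, Krt86, a hair keratin, Smarcd3, a subunit of the BAF chromatin remodelling complex, Cx3cr1, the fractalkine receptor, Ccdc71l, Arhgap31, a GTPase-activating protein of Rac and Cdc42, Camk2n1, an inhibitor of the kinase CaMKII, Fbxo31, a ubiquitin ligase adaptor, Nfe2, a transcription factor of megakaryocytes and red cell precursors, and Qprt, an enzyme of NAD synthesis. Gpx8 had log2 levels of 4.24 and 3.89, 4.78 and 4.55, and 7.74 and 7.37, which put it above background in CD27-CD11b+ cells alone.

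Cx3cr1 had a late difference of 4.08, with log2 levels of 6.65 and 6.66, 7.46 and 7.26, and 11.94 and 10.95. Its CD27-CD11b+ arrays differed by more than those of Kcnj8. Of the 10, 4 (Gpx8, Smarcd3, Krt86 and Nfe2) were above background in CD27-CD11b+ cells alone, so their late differences of 2.89, 2.82, 1.91 and 1.39 start from levels below background and have no order among the others. The remaining 5 had late differences of 1.001 to 1.14. Other probe sets of Camk2n1, Ccdc71l, Cx3cr1, Fbxo31 and Qprt were also higher in the late step, while 2 of the 3 other probe sets of Arhgap31 were lower (differences of -0.27 and -0.11). No potassium channel gene was among the 10. The one potassium channel gene among the 498 was Kcnn4, with a correlation of -0.960, at place 474.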

How the data were processed

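The deposited value table holds log2 values for 45101 probe sets on 6 arrays. The submitters' processing notes name RMA, with no version or chip definition, and the log2 scale of the deposited values was read from their range (2.60 to 14.72). Array medians were 5.26 to 5.35. RMA removes a change shared by most genes. Scanner files were not used here.

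Samples were grouped by title. Of the probe sets, 64 were controls, and of the other 45037, 34945 had 1 gene symbol, 932 several and 9160 none. Probe sets with 1 symbol alone gave gene names. Of the named probe sets, 34741 had their gene identifier in the RefSeq table, and 0 symbols needed updating.

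The 7 partner probe sets were tested with limma 3.58.1 (R 4.3.3) over all 45037 probe sets and 6 arrays, with 1 mean per subset (3 residual and 3.34 prior degrees of freedom) and Benjamini-Hochberg adjusted p-values. Gene lists and neighbours used the same model with 1 probe set per gene, the one with the highest mean (18193 genes), a choice made after the values were seen. The fits were tested on simulated data. Members, lists and the rule for named genes (all members, 5 neighbours on each side, the 10 best correlated genes, called and brightest list members) were chosen with earlier results of these data known. The alternatives were a filter on dim probe sets, 1 probe set per gene, 32 added to the linear value, a variance prior that follows the mean, only the arrays compared, each array left out, a replicate block, a block for the array division and, for the background level, another percentile.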

Additional observations from a re-analysis of the deposited data

How the results depend on the processing

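The counts of called partner probe sets were 0 in all 3 comparisons under every alternative run, and none of the 243 partner values under alternatives passed an adjusted p of 0.05 (lowest 0.216). The number of probe sets called among all, 0, 18 and 288 in the early, late and outer comparison, moved more. With 1 probe set per gene it was 22, 54 and 617 genes, and with a prior that follows the mean 3 in the early step. With 32 added to the linear value it was 2 in the late step and 127 in the outer comparison, with only the arrays compared 0 and 68, and with the array division as a block 5 in the late step. Leaving out 1 array gave 0 in the early step, 0 to 415 in the late step and 18 to 971 in the outer comparison. Both upper ends came without CD27-CD11b+ replicate 2, and the lower end of the outer comparison without CD27+CD11b- replicate 2.

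Titles give replicate numbers 1 and 2 in each subset, but the deviations of same-numbered samples correlated at 0.611, -0.075 and 0.060 across the pairs of subsets, so the numbers were not taken to pair samples. With the replicate block 11 probe sets were called in the late step, and 0 of 7 partner probe sets in each comparison.

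The late difference of Kcnj8 was 3.56 with 32 added (outer 3.88) and 3.82 to 4.06 without 1 array (outer 4.27 to 4.50). In 12 of 21 partner results the sign changed when 1 array was left out, and no other alternative turned a sign. Without 1 array, Kcnj11 probe set 1455417_at ranged from -0.43 to 0.10 (early) and -0.39 to 0.13 (late). Abcc8 probe set 1455765_a_at ranged from -0.061 to 0.53 (early) and -0.24 to 0.35 (outer), and 1457066_at from -0.50 to 0.22 (early) and -0.54 to 0.18 (late). Abcc9 probe set 1420408_a_at ranged from -0.12 to 0.085 (early), -0.12 to 0.089 (late) and -0.13 to 0.061 (outer). Abcc9 probe set 1435751_at ranged from -0.27 to 0.070 (late), and 1435752_s_at from -0.12 to 0.25 (early) and -0.33 to 0.047 (outer). The cause was not tested, beyond fewer arrays in such fits. Signs of the partners' differences are therefore not settled, which also limits the count of 7 late differences below 0. With the background level at the 90th percentile (6.19), 2 of 8 member probe sets were above it, as with the 95th. The fit over all probe sets for gene lists was added after seeing the data.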

Other observations

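Enzymes and binding proteins described with these channels in muscle or beta cells (creatine kinases, lactate dehydrogenase, protein kinase A, 14-3-3 proteins and others) were mostly present: 13 of 16 measured were above background. By limma 1 was called in the early step, 0 in the late step and 1 in the outer comparison (4, 1 and 5 at an unadjusted p under 0.05), where 0.121%, 0.297% and 3.39% of all genes were called and 3.79%, 11.1% and 18.9% had an unadjusted p under 0.05. The called gene was Ckb, the brain-type creatine kinase, which restores ATP from phosphocreatine. It had log2 levels of 7.81 and 8.21 in CD27+CD11b- cells, 6.23 and 6.42 in CD27+CD11b+ cells, and 6.48 and 6.24 in CD27-CD11b+ cells. The CD27+CD11b- arrays stood above all others, and the other subsets overlapped, with means below the background level of 6.40. The early difference was -1.69 (limma SE 0.19, adjusted p = 0.0217) and the outer one -1.64 (adjusted p = 0.00483). The early call was lost with the replicate block (adjusted p = 0.0549), with 32 added (0.218), with only the arrays compared (0.0852) and in the fit over all probe sets (0.153). It was also lost in 5 of 6 fits that left out 1 array (0.0253 to 0.202 over the 6). The probe sets of Ywhab and Ywhaz, 14-3-3 protein genes, and of Prkar1a, a regulatory subunit of protein kinase A, had the 3 highest means of the list, and none of them was called.

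Potassium channels of lymphocytes hold the membrane potential that drives calcium entry, and all 5 genes of store-operated calcium entry measured were above background. By limma 0 were called in any comparison (0, 1 and 3 at an unadjusted p under 0.05, against 3.79%, 11.1% and 18.9% of all genes). Their median differences were 0.18, 0.32 and 0.50 in the early, late and outer comparison. Stim1, a calcium sensor of the endoplasmic reticulum, had an outer difference of 0.60 (adjusted p = 0.170). Stim2 and the channel gene Orai1 were bright in every subset, at 8.69 to 9.36 and 8.52 to 8.93.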
